A study of Mus musculus with 2 samples.

Results

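The genes described here are the Ink4 locus and the regulators around it. They are Cdkn2a and Cdkn2b with their neighbour Mtap, the related inhibitor genes Cdkn2c, Cdkn2d and Cdkn1b, the tumour suppressor genes Trp53 and Rb1, and the Polycomb genes Bmi1 and Ezh2. They were chosen by name from an expression table of 24015 genes, and all 10 were found in it. The cells were mouse embryonic fibroblasts (connective tissue cells cultured from embryos), grown in DMEM with fetal bovine serum and antibiotics and given no other treatment that the labels name. There was 1 library of genotype Adar2+/+, called WT-labelled below, and 1 of genotype Adar2-/-, called KO-labelled. The strain, embryonic age, passage number, number of embryos and whether the cultures were primary or immortalized are details not given in the sources used here.

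INK4 proteins bind the kinases CDK4 and CDK6 and keep them from pairing with D-type cyclins, so that the retinoblastoma protein stays active and holds E2F factors in check. Cdkn2a also encodes p19Arf from an alternative first exon, and p19Arf binds Mdm2, the ubiquitin ligase of p53, and thereby stabilizes p53. Embryonic fibroblasts in culture are known to raise the products of this locus as they approach senescence, and cells that escape into permanent growth have often lost Arf or p53. Polycomb complexes, which contain Bmi1 or Ezh2, are known repressors of the locus in young cells.

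The libraries rested on 9446911 reads (WT-labelled) and 9546997 reads (KO-labelled), recovered from the deposited table. RPKM, the unit of level used throughout, divides the reads of a gene by its length and by the size of the library. The highest level in the table corresponded to 1.01 and 1.19 reads per base, and the 10 genes lay at up to 0.545 reads per base. Whether levels are compressed toward that highest value, as removal of duplicate reads could do, was not tested. Compression could make differences between levels, and so ratios and shares of sums, appear smaller. Adarb1, the targeted gene, was not lower in the KO-labelled library (18.4 RPKM WT-labelled, 25.8 RPKM KO-labelled). The deleted exon is not named and the table has no values by exon, so this does not check the genotype, and each direction below rests on the labels. The KO-labelled library listed 110 edited sites against 654. Fibroblast markers were present in both libraries, with a summed level over 13 genes of 587 and 605 RPKM and Fap at 0.822 and 0 RPKM. The even sum holds members that differ in opposite directions: Thy1 was higher in the KO-labelled library (9.40 and 72.1 RPKM), and Dcn (29.7 and 12.3 RPKM) and Lum (19.1 and 11.3 RPKM) were lower. Blood markers (9 genes) summed to 7.27 and 7.88 RPKM, with Csf1r at 64 and 3 reads and Cd68 at 5.15 and 7.40 RPKM. Endothelial markers (6 genes) summed to 3.998 and 0.409 RPKM, with Tek at 106 and 6 reads and Kdr at 50 and 8 reads. The 7 epithelial markers summed to 61.8 and 20.6 RPKM, nearly all of it Krt19 (59.4 and 18.8 RPKM), with Cdh1 at 75 and 3 reads, Krt8 at 1 and 18 reads and Epcam at 0.103 and 0 RPKM. The 8 muscle and cartilage markers summed to 128 and 87.1 RPKM, with Myod1 and Myog listed at 0 in both libraries and the cartilage collagen gene Col2a1 at 48.0 and 0.571 RPKM. The part of these marker differences in the results below was not tested. With 1 library per genotype no difference has a replicate check, intervals cover counting error only, and fewer cells with a transcript cannot be told apart from less transcript per cell.

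Several starts of transcription shape the locus, and the bases before each are shown because Cdkn2a and Cdkn2b were the members with the largest differences. The windows end where the first annotated exon begins, are written 5′ to 3′ on the minus strand, come from RefSeq on GRCm38.p6 (which held windows for 9 of the 10 genes, not for Rb1) and have CG dinucleotides in capitals.
Cdkn2a, p19Arf start, chr4:89294654-89294869: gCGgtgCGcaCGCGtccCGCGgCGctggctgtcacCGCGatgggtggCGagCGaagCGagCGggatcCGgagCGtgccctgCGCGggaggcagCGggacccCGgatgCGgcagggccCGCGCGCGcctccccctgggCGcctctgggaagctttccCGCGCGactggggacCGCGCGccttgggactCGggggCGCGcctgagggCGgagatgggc
Cdkn2a, p16 start, chr4:89282193-89282442: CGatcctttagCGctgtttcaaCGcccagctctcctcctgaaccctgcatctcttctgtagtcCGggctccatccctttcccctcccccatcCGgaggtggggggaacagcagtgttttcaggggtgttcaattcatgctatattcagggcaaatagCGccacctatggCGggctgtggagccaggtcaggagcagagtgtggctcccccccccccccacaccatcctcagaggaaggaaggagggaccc
Cdkn2b start, chr4:89311040-89311282: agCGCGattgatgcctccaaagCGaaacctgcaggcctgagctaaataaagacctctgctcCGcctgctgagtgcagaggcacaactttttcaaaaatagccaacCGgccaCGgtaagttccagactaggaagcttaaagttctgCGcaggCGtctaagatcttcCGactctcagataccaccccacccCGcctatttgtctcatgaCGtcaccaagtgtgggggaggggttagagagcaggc
The printed windows are 216, 250 and 243 bases long, since GENCODE begins 2 of the 3 first exons earlier than RefSeq, and the counts below are over the full 250 bases before each RefSeq start. Before the p19Arf start there were 40 CG dinucleotides (35 in the printed part), more than in 98.7% of the 32851 RefSeq windows of that length, whose median was 6. Before the p16 start there were 7, and before the Cdkn2b start 12 (11 in the printed part). The GC box GGGCGG, searched on both strands, occurred 2 times before the p19Arf start (1 time in the printed part) and not before the other 2 starts; 32.7% of all windows held it. The letters TATAAA (12.4% of all windows), TTTCGCGC (0.256%) and CCGGAA (12.03%) were in none of the 3 windows on either strand. These are matches of letters only, and no binding or methylation was measured here.

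The table gives Cdkn2a a single value, so p16 and p19Arf could not be read apart. The gene length behind that value was 1136 bases, longer than the annotated p16 transcript (852 bases) or p19Arf transcript (895 bases) and close to all their exons together (1172 bases), which, with exons as in that annotation, places both first exons in the count. Cdkn2a and Cdkn2b arose as copies of each other, which bears on whether their reads can be told apart. Over the aligned coding sequence 290 of 383 bases (75.7%) were identical. The longest run shared by the p16 and Cdkn2b transcripts was 23 bases, and none of the 817 windows of 36 bases in the p16 transcript occurred in Cdkn2b. Between the other pairs of the 4 Ink4 genes the coding identity was 57.9% to 68.4%, with shared runs of at most 16 bases. A read of 36 bases without errors could therefore be placed in 1 of these 4 transcripts. The labels do not state the read length.

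Cdkn2a was among the more abundant transcripts of the WT-labelled library and nearly absent from the other. It had 57.7 RPKM from 619 reads (95% Poisson interval 53.2 to 62.4 RPKM) in the WT-labelled library, above 13168 of the 13867 compared genes, those that reached 1 RPKM in either library. In the KO-labelled library it had 0.0922 RPKM from 1 read (0.0023 to 0.514 RPKM), above 1.51% of them. The log2 ratio of reads per total was -9.29, with an exact 95% interval of -14.60 to -6.81, or between 112-fold and 24748-fold lower. On the scale of log2 RPKM + 1, which understates the difference of a low value, the ratio was -5.75, the lowest of all compared genes on that scale. The rank depends on the added 1. Genes listed at 0 in the KO-labelled library, such as Slc5a7 (51.4 RPKM WT-labelled), fall below Cdkn2a as the added value shrinks. The authors' deposited table gives it a generalized log2 fold change (GFOLD, shrunken toward 0) of -6.50.

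Cdkn2b, which encodes p15Ink4b and lies next to Cdkn2a, was also lower but stayed expressed. Its level was 49.4 RPKM from 650 reads (45.7 to 53.3 RPKM) in the WT-labelled library and 16.3 RPKM from 217 reads (14.2 to 18.6 RPKM) in the KO-labelled library. The KO-labelled value was 3.03-fold lower, and the log2 ratio of reads of -1.60 had an interval of -1.83 to -1.37. This interval does not reach that of Cdkn2a, so the 2 genes of the locus differed between the libraries by unequal amounts beyond counting error. By log2 ratio on RPKM + 1 it was the 531st lowest gene of the 13867.

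Mtap, the neighbour on the other side of Cdkn2a, encodes the enzyme that recovers methionine and adenine from a by-product of polyamine synthesis. It went the other way: 42.0 RPKM from 1015 reads (WT-labelled) against 51.3 RPKM from 1254 reads (KO-labelled). The KO-labelled value was 22.3% higher (log2 ratio of reads 0.29, interval 0.17 to 0.41), and it was the highest of the 10 genes in that library.

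**Figure D1:**
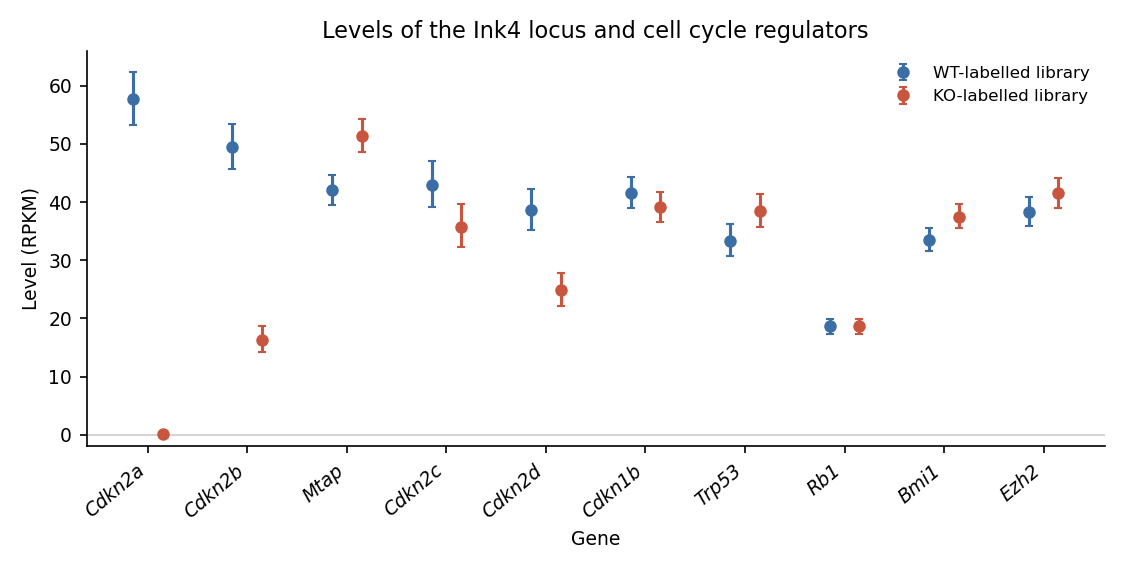
Level in RPKM (vertical axis) of each of the 10 genes (horizontal axis), with the WT-labelled library in blue, the KO-labelled library in red and exact 95% Poisson intervals of the reads as bars. Cdkn2a stands at 57.7 and 0.0922 RPKM and Cdkn2b at 49.4 and 16.3 RPKM, while Rb1 is at 18.6 and 18.7 RPKM.

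Further along chromosome 4 most of the nearest listed genes had too few reads to show whether the difference continued. Of the 16 nearest listed genes, 8 on each side in the order of the GRCm38 reference, 10 were under 1 RPKM in both libraries, 7 of them at 0. Next to Mtap, the noncoding gene Gm12603 (Wincr1) had 12.5 RPKM from 85 reads and 14.4 RPKM from 99 reads, a difference within counting error (log2 interval -0.23 to 0.64). Mir31, which lies beyond it, had 0 and 2 reads and Ifne, an interferon gene, 2 and 0 reads, too few to compare. The interferon alpha genes Ifna1, Ifna4, Ifna5 and Ifna6, near-identical copies of one another, were listed at 0 in both.

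On the side of Cdkn2b, the next listed gene, Dmrta1, had 0.338 RPKM (13 reads) and 0.206 RPKM (8 reads). The interval of its log2 ratio, -2.19 to 0.66, holds both 0 and the ratio of Cdkn2b (-1.60), so it cannot show whether the difference reached that gene. Zfp352 stood at 0.0468 and 0.0463 RPKM, and Gm12633, Mir6402 and Izumo3 were listed at 0 in both libraries. Elavl2, which encodes an RNA-binding protein known from neurons, was higher in the KO-labelled library at a low level (0.372 RPKM from 16 reads and 1.22 RPKM from 53 reads; log2 interval 0.88 to 2.62). The transcribed pseudogene Gm12669 was alike (17.8 and 17.3 RPKM; log2 interval -0.36 to 0.28). Tusc1, the farthest of the 8, had 20.4 RPKM (263 reads) and 12.1 RPKM (158 reads), the KO-labelled value being lower, with a log2 interval of -1.04 to -0.46. The reference also has a noncoding gene, Gm12610, with ANRIL among its synonyms, between Cdkn2a and Cdkn2b. The table has no row under these names, and since the use of strand is not given, reads of that gene over Cdkn2a or Cdkn2b cannot be told from theirs.

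**Figure D2:**
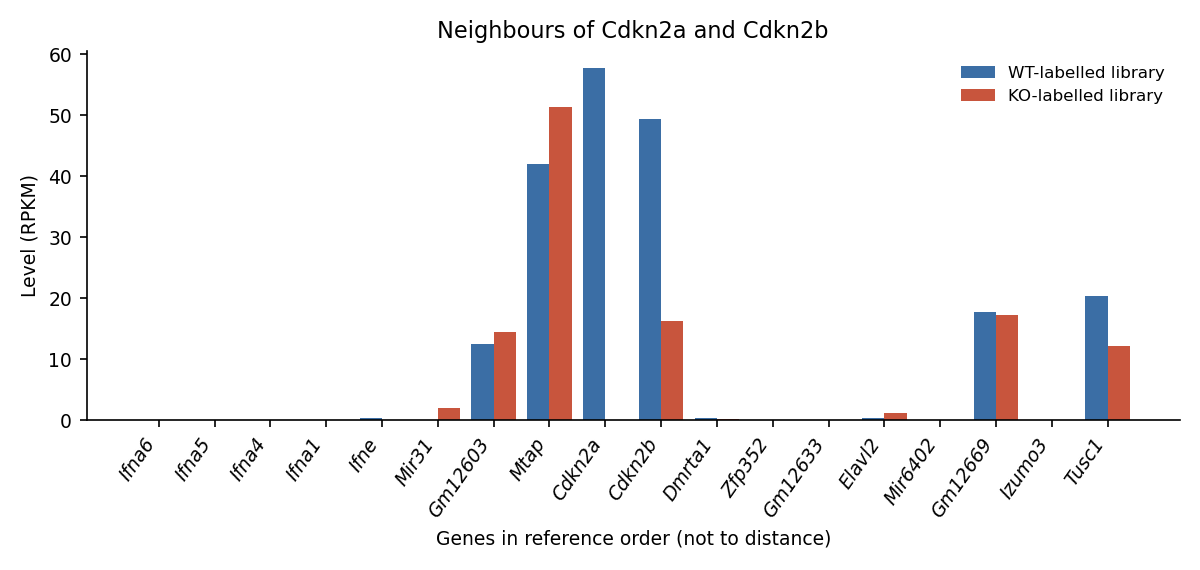
Level in RPKM (vertical axis) of Cdkn2a, Cdkn2b and the 8 nearest listed genes on each side, in reference order along chromosome 4 and not to distance, as blue bars (WT-labelled) and red bars (KO-labelled). Mtap and Cdkn2b flank Cdkn2a, whose red bar at 0.0922 RPKM is not visible.

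The remaining Ink4 genes were lower by less. Cdkn2d, which encodes p19Ink4d (a different protein from p19Arf), had 38.6 RPKM from 463 reads (WT-labelled) and 24.9 RPKM from 302 reads (KO-labelled), 35.5% lower (log2 interval -0.85 to -0.42). Cdkn2c, which encodes p18Ink4c, had 43.0 RPKM from 449 reads and 35.8 RPKM from 378 reads, 16.7% lower. Its interval, -0.46 to -0.06, came close to 0, and the authors' deposited table gives a GFOLD value of 0.00. All 4 Ink4 genes thus had the lower value in the KO-labelled library, where 50.8% of all compared genes had the higher one. The order was Cdkn2a, Cdkn2b, Cdkn2d and Cdkn2c, although the intervals of Cdkn2d and Cdkn2c overlap.

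In the WT-labelled library the 4 Ink4 genes were within a narrow range, and Cdkn2a made up 30.6% of their summed 189 RPKM. The Cdkn2a part of this and the following sums counts p16 and p19Arf transcripts together, in unknown proportions. In the KO-labelled library the sum was 77.1 RPKM, of which Cdkn2c made up 46.4%, Cdkn2d 32.3%, Cdkn2b 21.2% and Cdkn2a 0.12%. The order from the highest level down, Cdkn2a, Cdkn2b, Cdkn2c, Cdkn2d in the WT-labelled library, became Cdkn2c, Cdkn2d, Cdkn2b, Cdkn2a. In the first order the Poisson intervals of neighbours overlap, while that of Cdkn2a lies above those of Cdkn2c and Cdkn2d and that of Cdkn2b above that of Cdkn2d. In the second all are apart.

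Cip/Kip inhibitors, which act on a wider range of cyclin-CDK complexes, did not follow the Ink4 genes. Cdkn1b, encoding p27Kip1, had 41.6 RPKM from 946 reads and 39.1 RPKM from 897 reads, a difference within counting error (log2 interval -0.23 to 0.04). Cdkn1a, encoding the p53-induced inhibitor p21, was 1.97-fold higher in the KO-labelled library, with 30.1 RPKM from 577 reads and 59.3 RPKM from 1147 reads (log2 interval 0.83 to 1.12). Cdkn1c, encoding p57Kip2 from an imprinted gene, was low in both, at 2.07 RPKM (38 reads) and 4.96 RPKM (92 reads), and higher in the KO-labelled library (log2 interval 0.70 to 1.85).

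Across all 7 CDK inhibitor genes the summed level was 262 RPKM (WT-labelled) and 180 RPKM (KO-labelled). Cdkn1a went from 11.5% to 32.9% of that sum, and was the highest CDK inhibitor of the KO-labelled library. Because the sum counts all Cdkn2a reads, p19Arf included, the level of CDK inhibitor transcripts alone is not known. By RPKM + 1, 2 of the 7 were at least 2-fold lower and 0 at least 2-fold higher (7.46% and 4.42% of all compared genes), with a median log2 ratio of -0.26 against 0.01 over all compared genes.

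**Figure D3:**
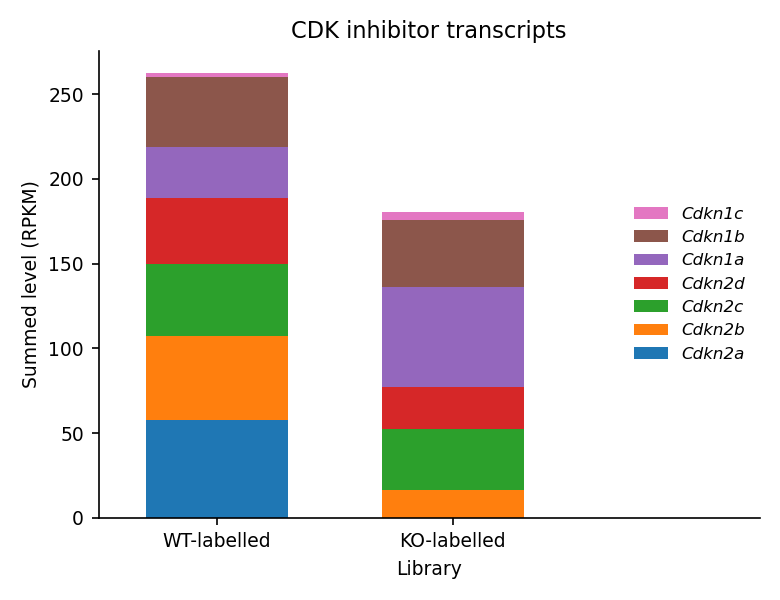
Summed level in RPKM (vertical axis) of the 7 CDK inhibitor genes in each library (horizontal axis), with 1 colour per gene. The sums are 262 RPKM (WT-labelled) and 180 RPKM (KO-labelled), and in the latter the Cdkn2a segment is too thin to see and the Cdkn1a segment is the tallest. The Cdkn2a segment counts p16 and p19Arf transcripts together.

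Trp53 and Rb1, the genes of the 2 proteins through which the locus acts, were expressed in both libraries. Trp53 had 33.4 RPKM from 589 reads and 38.5 RPKM from 686 reads, 15.2% higher in the KO-labelled library with an interval just above 0 (0.04 to 0.37, log2). Rb1 had 18.6 RPKM from 814 reads and 18.7 RPKM from 824 reads, and its log2 ratio of 0.00 had an interval of -0.14 to 0.14. These are transcript levels of whole genes and show neither the protein nor a mutation.

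The Polycomb genes of the group were a little higher in the KO-labelled library or alike. Bmi1, a core subunit of Polycomb repressive complex 1, had 33.5 RPKM from 1137 reads and 37.5 RPKM from 1287 reads, 12.01% higher (log2 interval 0.05 to 0.28). Ezh2, the histone H3 lysine 27 methyltransferase of complex 2, had 38.3 RPKM from 966 reads and 41.5 RPKM from 1056 reads, with an interval that includes 0 (-0.01 to 0.24).

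Of the 10 genes, 2 (Cdkn2a and Cdkn2b) were lower by at least 2-fold on RPKM + 1, as were 7.46% of all compared genes. None was higher by at least 2-fold, as 4.42% of all compared genes were. By direction 5 were higher and 5 lower, and 50.8% of all compared genes were higher. The median log2 ratio of the 10 was -0.04. The intervals of 3 genes, Cdkn1b, Rb1 and Ezh2, included 0. These intervals scale the libraries by total reads. The authors' log2 fold change is scaled otherwise and was higher (Rb1 0.05 against 0.00, Ezh2 0.17 against 0.11). Interval ends close to 0, such as the lower end of Ezh2, therefore depend on the scaling.

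**Figure D4:**
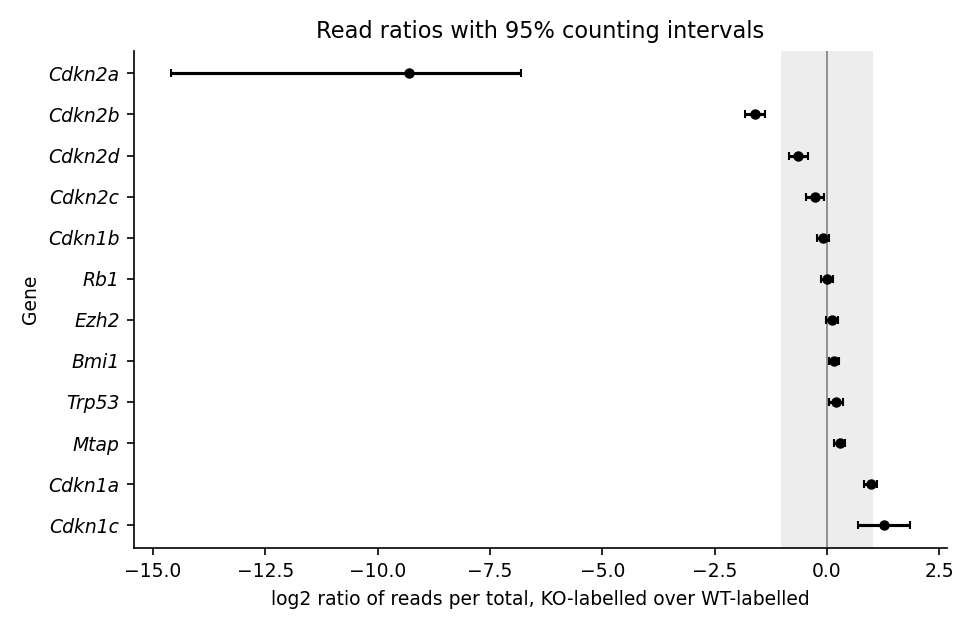
Log2 ratio of reads per total, KO-labelled over WT-labelled (horizontal axis), for the 10 genes with Cdkn1a and Cdkn1c (vertical axis), with exact 95% counting intervals; grey marks differences under 2-fold. Cdkn2a (-9.29) and Cdkn2b (-1.60) lie left of the grey band, Cdkn1c (1.26) lies right of it, and Rb1 lies at 0.00.

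The list of 15 cyclin, CDK and Cdc25 genes reaches beyond Cdk4 and Cdk6, whose kinases INK4 proteins bind. None of the 15 was 2-fold apart, a difference that 4.42% of all compared genes reached upward and 7.46% downward. A list this short cannot be set apart from those shares by a count of 0. By direction 6 were higher and 9 lower, and the median log2 ratio was -0.02. Cdk6, a direct target of Ink4 proteins, was the highest by ratio (11.4 and 18.6 RPKM), followed by Cdk2 (39.3 and 45.8 RPKM). Ccne1 (35.4 and 24.1 RPKM) and Ccnd3 (53.3 and 37.1 RPKM), encoding cyclins E1 and D3, were the lowest. The 13 pocket protein, E2F and DP genes, Rb1 among them, also had no member 2-fold apart (median -0.01). The Rb1 relative Rbl1 (22.8 and 29.5 RPKM) and the atypical repressor gene E2f7 (18.8 and 24.3 RPKM) had the highest ratios at 10 RPKM or more, and E2f6 (26.9 and 20.02 RPKM) and E2f8 (27.1 and 23.1 RPKM) the lowest.

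Of 24 E2F targets of DNA replication 0 were 2-fold apart, against 4.42% higher and 7.46% lower of all compared genes. By direction 18 were higher and 6 lower (median 0.08), where 50.8% of all compared genes were higher. The DNA polymerase genes Pole (9.80 and 13.9 RPKM) and Pola1 (24.5 and 33.9 RPKM) were at the upper end. The ribonucleotide reductase genes Rrm2 (42.2 and 31.2 RPKM) and Rrm1 (30.8 and 28.4 RPKM) were at the lower end.

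Genes around p53 were mostly higher in value in the KO-labelled library. All 13 regulators found in the table, Trp53 included, had the higher value there, none by 2-fold (median 0.23, against 0.01 over all compared genes). The p53 inhibitor genes Mdm4 (25.6 and 37.5 RPKM) and Mdm2 (35.6 and 50.9 RPKM) had the highest ratios, and Usp7 (44.7 and 45.9 RPKM) and Npm1 (66.5 and 71.5 RPKM), which encodes an Arf-binding nucleolar protein, the lowest. Of 22 p53 target genes 21 were higher, 3 of them at least 2-fold, and the median was 0.35; of all compared genes 50.8% were higher and 4.42% at least 2-fold higher. Cdkn1a and Mdm2 belong to this list too.

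The 3 p53 targets past 2-fold were Perp, Eda2r and Trp53inp1. Perp, an adhesion gene, had 0.613 RPKM from 11 reads and 20.6 RPKM from 373 reads. Eda2r, a receptor gene, had 0.600 RPKM from 33 reads and 19.1 RPKM from 1060 reads. Trp53inp1 had 4.64 RPKM from 238 reads and 23.4 RPKM from 1212 reads. Trp53inp1 is named as the remaining gene of that count, chosen after its values were seen. The lowest were the death receptor genes Fas (18.3 and 16.9 RPKM) and Tnfrsf10b (29.8 and 30.6 RPKM), both within counting error.

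Polycomb genes beyond Bmi1 and Ezh2 also had no member 2-fold apart on RPKM + 1. Of all compared genes 4.42% were higher and 7.46% lower by as much. The Polycomb gene nearest to 2-fold was the chromobox gene Cbx7, a known repressor of the locus named after its values were seen. It had 4.87 RPKM from 133 reads and 9.92 RPKM from 274 reads (2.04-fold higher by RPKM, log2 interval of reads 0.72 to 1.34). In complex 1, 16 of 19 genes were higher in the KO-labelled library (median 0.16), against 50.8% of all compared genes. The highest ratios at 10 RPKM or more were those of Cbx2 (13.3 and 22.5 RPKM), another chromobox subunit, and Pcgf5 (11.9 and 20.1 RPKM). Rybp (35.1 and 30.4 RPKM) and Phc2 (25.9 and 23.0 RPKM) were lowest at that level. Among complex 2 genes and H3K27 demethylases, 9 of 13 were higher (median 0.11), against the same 50.8%. The highest were Kdm6b (18.1 and 30.5 RPKM), encoding a demethylase known to activate the Ink4/Arf locus, and the Ezh2 relative Ezh1 (12.01 and 17.9 RPKM). Phf1 (19.5 and 15.1 RPKM) and Jarid2 (11.7 and 10.4 RPKM) were the lowest.

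Transcription factors known to act on the locus had 1 of 17 compared genes 2-fold apart (median 0.01). Of all compared genes 4.42% were higher and 7.46% lower by as much. The factor past 2-fold was Tbx3, a T-box factor known as a repressor of Arf. It had 0.503 RPKM from 23 reads (WT-labelled) and 13.1 RPKM from 603 reads (KO-labelled), with a log2 interval of 4.10 to 5.37. Foxo3 was next (21.8 and 36.6 RPKM). Id1, known to repress p16 through Ets factors, was the lowest (58.7 and 35.9 RPKM), with Fos (24.3 and 16.2 RPKM). A list of ubiquitin ligase genes and partners, drawn up around p27 turnover, had 0 of 9 past 2-fold (median 0.00). Not all of its genes act on p27. It ran from Cks1b (71.9 and 67.5 RPKM) and Fbxw7 (12.2 and 11.7 RPKM) to Skp2 (24.3 and 32.4 RPKM) and Rnf123 (18.5 and 25.3 RPKM).

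The list of Mtap and its metabolic partners had 0 of 14 genes past 2-fold, against 4.42% higher and 7.46% lower of all compared genes. A count of 0 in a list this short cannot be set apart from those shares. The median log2 ratio of the list was 0.03. Wdr77 (25.7 and 32.2 RPKM), a partner of the methyltransferase Prmt5, and Mri1 (20.05 and 24.9 RPKM), which acts after Mtap in methionine salvage, had the highest ratios. The polyamine synthesis gene Odc1 (36.3 and 29.7 RPKM) and Apip (15.7 and 13.1 RPKM) had the lowest.

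Among senescence-associated genes 4 of 20 compared were lower by at least 2-fold and none higher by as much, against 7.46% and 4.42% of all compared genes. Their median was -0.22 against 0.01, with 14 lower in direction. The list pools secreted genes with structural ones such as Lmnb1 (34.3 and 35.3 RPKM), Hmgb1 (60.6 and 51.3 RPKM) and Hmgb2 (27.3 and 28.2 RPKM). Its genes need not change in the same direction in senescence, so the median and the count have no single reading. The collagenase gene Mmp13 (33.0 RPKM from 835 reads and 9.36 RPKM from 239 reads) and the cytokine gene Il6 (23.4 RPKM from 240 reads and 9.73 RPKM from 101 reads) were the lowest at 10 RPKM or more. The other 2 of the 4 were Mmp3 (42.2 and 18.4 RPKM) and Csf2 (12 reads and 1 read), named after their values were seen. The chemokine gene Ccl2 (56.7 and 65.6 RPKM) had the highest ratio at that level. Telomerase and shelterin genes had 0 of 10 past 2-fold (median 0.08), from Pot1b (13.0 and 10.6 RPKM) and Tinf2 (35.4 and 32.1 RPKM) to Terf2 (22.2 and 25.9 RPKM) and Wrap53 (14.3 and 20.8 RPKM).

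**Figure D5:**
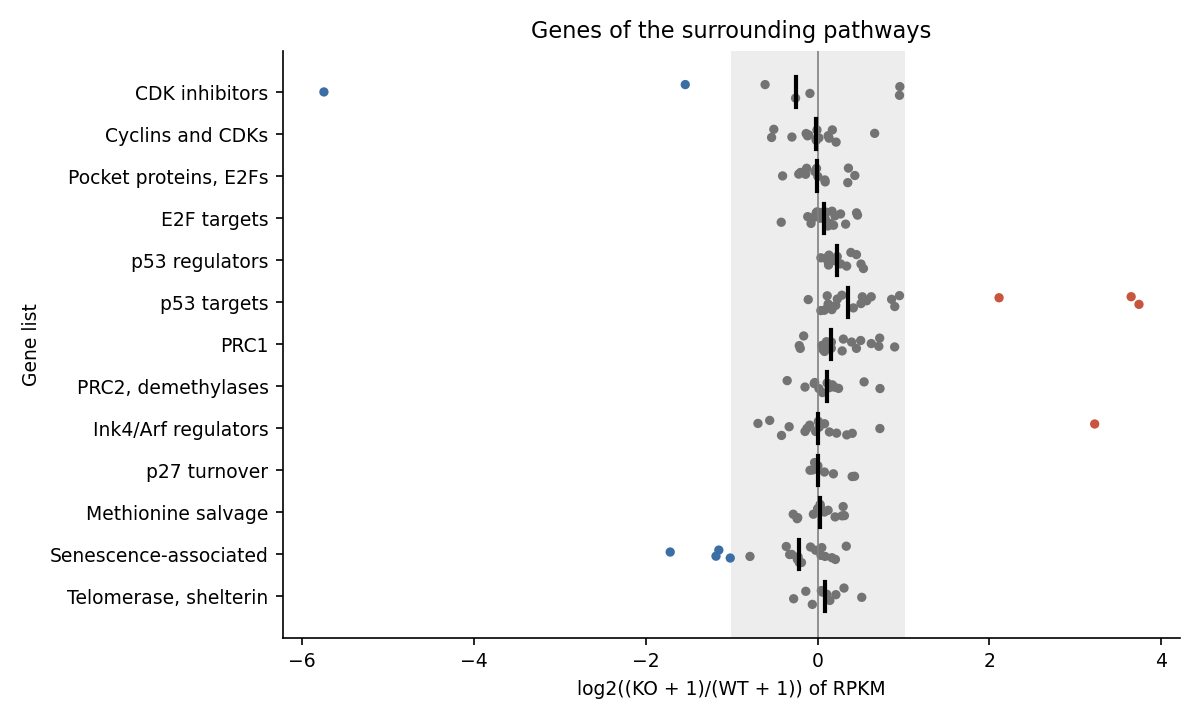
Log2 ratio of RPKM + 1, KO-labelled over WT-labelled (horizontal axis), of each compared gene in the 13 gene lists (vertical axis), with a black bar at each median and grey marking differences under 2-fold. Blue points are at least 2-fold lower and red points at least 2-fold higher; Cdkn2a at -5.75 is the farthest left.

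The genes whose pair of values was most like that of Cdkn2a, by distance of log2 RPKM + 1 over the 2 libraries, were the choline transporter gene Slc5a7 (51.4 RPKM and listed at 0), Ifi44 (42.5 and 0.252 RPKM), Rps4l (41.2 RPKM and listed at 0), Col2a1 and Meox2 (36.7 RPKM and listed at 0). Those nearest to Cdkn2b were Samd9l (44.4 and 17.0 RPKM), Il1rn (56.5 and 15.9 RPKM), Id2 (42.8 and 17.0 RPKM), A4galt (43.6 and 14.9 RPKM) and Clec11a (54.0 and 14.2 RPKM). With 2 libraries, likeness means only a similar level in each.

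No edited site was listed in any of the 10 genes in either library. Of the genes in the lists around them, Igfbp7 and Rbbp4 had 9 listed sites in the WT-labelled library. Igfbp7, of the senescence-associated list, had 2 sites that change the protein, at 26.7% of 86 reads and 34.2% of 79 reads, and none in the KO-labelled list. Rbbp4, a histone-binding subunit of Polycomb complex 2, had 7 sites in the WT-labelled and 0 in the KO-labelled list. On chromosome 4 (mm9) its 3′ untranslated region was edited at position 128987228 in 32.7% of 49 reads (Wilson 95% interval 21.2 to 46.6) and at 128987135 in 28.6% of 49 reads (17.8 to 42.4). At positions 128987230, 128987231 and 128987241 the level was 22.4% of 49, 14.0% of 50 and 12.3% of 57 reads. Both intronic sites (128997380 and 128997382) rested on 5 reads each. Since the lists hold only sites with at least 2 edited reads, absence from a list leaves the level of a site unmeasured. Rbbp4 itself was expressed at 39.7 and 43.7 RPKM.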

How the data were processed

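Poly(A)+ RNA was read as single-end reads, 1 library per genotype, and each library was grouped by its title. STAR 2.4.0d, SAMtools and mm9 stand in the submitters' processing notes with no role; the annotation, counting rule, use of strand, duplicate treatment and editing caller were not given in the sources used here. The authors deposited RPKM values, log2 fold changes, their generalized form (GFOLD) and an empirical FDR (a q-value, 1 in every row and not used), per the file headers. The deposited editing lists give counts of reads and of mismatches and the editing level as a fraction, per the file headers.

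Whole reads were recovered from the deposited columns: in all 2193 genes at 0 in 1 library the log2 fold change gave reads within 0.1 of a whole number. Totals were those that made gene lengths whole, and 238 of 258 genes used had a single solution; the recovery was tested on simulated data. Ratios are log2((KO + 1)/(WT + 1)) of RPKM for genes that reached 1 RPKM in either library. Read ratios have exact 95% Clopper-Pearson intervals, levels exact Poisson intervals and editing levels Wilson intervals. Without molecular identifiers PCR copies cannot be told from separate molecules, and whether duplicate reads were removed is not given. The intervals treat reads as independent counts and cover counting error only. No p-value was computed.

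The members and the 13 pathway and 5 marker lists were chosen with earlier results of these data known. Named genes are the 10 members, the other CDK inhibitors, the 2 highest and 2 lowest ratios of each other list at 10 RPKM or more, the 8 listed neighbours on each side and the 5 genes nearest to Cdkn2a and Cdkn2b; a gene under this rule is not reported here. Other pseudocounts, filters, a centring and the GFOLD values were tried. GENCODE M21 and RefSeq (GRCm38) gave gene order and sequences only, and no mm9 position was converted. Work used Python 3.11.15, numpy 2.4.6, pandas 2.3.3, scipy 1.17.1 and Biopython 1.88.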

Additional observations from a re-analysis of the deposited data

How the results depend on the processing

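With 1 library per genotype no library could be left out. No paired analysis was possible because each genotype has 1 library. Every member had at least 18.6 RPKM in the WT-labelled library, so removing the filter or raising it to 5 RPKM could not change a member ratio or count. The counts of 2 members at least 2-fold lower and 0 higher were the same under all 6 alternatives. Of 60 alternative ratios of single members, these fixed ones included, none past 2-fold changed sign. From the main ratio, 57 of them moved by less than the counting interval of the read ratio extends on that side. With the authors' GFOLD values, which are shrunken toward 0, the ratios of Cdkn2b (-1.28), Cdkn2c (0.00) and Cdkn2d (-0.33) moved by more. The ratio of Cdkn2a, whose counting interval is wide, ran from -8.23 with a pseudocount of 0.1 RPKM to -5.75, since its KO-labelled value rests on 1 read. List medians moved by 0.1 or more on the log2 scale with GFOLD values for CDK inhibitors (0.00), p53 targets (0.22) and senescence-associated genes (0.00), and with a filter of 5 RPKM, which drops Cdkn1c, for CDK inhibitors (-0.43). That filter also took the genes at least 2-fold apart from 613 higher and 1035 lower to 353 and 659. Centring on the median of compared genes shifted ratios by 0.01. At this depth the counting intervals of the log2 read ratios of members other than Cdkn2a were 0.23 to 0.45 wide.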
